A study of Schizosaccharomyces pombe with 8 samples.

Results

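The fission yeast gene ppk31 (SPBC725.06c, with the older name mug25) encodes a predicted serine/threonine protein kinase, and its transcript was followed across all 8 arrays of a heat shock study. The gene was chosen by the measured difference between the strains at 43C, where it stood highest in opi10-. It is 1 gene of 2896 Schizosaccharomyces pombe genes that had a named probe set, and 1 of 2892 whose signal passed a filter on dim probe sets. The 21 other genes whose current symbol is ppk followed by a number, all of which passed that filter, served as the family to compare it with. The arrays covered a strain called opi10- and a strain called opi10+. Both were in mid-log growth at 30C in Edinburgh Minimal Medium (before heat), were heated to 43C for 1 h, and then recovered at 30C, where samples were taken 1 h and 3 h later. Every combination of strain and time has 1 array. The labels give neither the kind of opi10- allele nor the rest of either genotype, nor whether a strain's arrays share a culture. No probe set carries the name opi10 in the annotation used here, so the labels could not be checked by the level of that gene.

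The name ppk was given to protein kinases predicted from the fission yeast genome sequence. Ppk18 and another kinase, Cek1, are the fission yeast relatives of the Greatwall kinase of animals and of Rim15 of budding yeast. Such kinases phosphorylate a small protein of the endosulfine family, Igo1 in yeasts, which then inhibits the phosphatase PP2A bound to its B55 subunit. This branch works under the nutrient kinases TORC1 and PKA and is known for the switch between growth and quiescence. The gene ppk31 was set beside ppk18 and cek1 from general knowledge, and that kinship was not checked by sequence here. The opi10 product is a fission yeast relative of Hikeshi, which in human cells imports HSP70 into the nucleus during heat stress.

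Signals of the deposited table were transformed as log2(value + 16) and quantile normalized over the S. pombe probe sets, since array medians on the log2 scale ran from 8.99 to 10.1. Changes and differences are on that scale unless the deposited signal is named. The added 16 makes the change of a dim gene smaller, while the normalization can make it larger. From before heat to 43C ppk31 changed 12.4-fold in opi10- and 5.01-fold in opi10+ on that scale, against deposited signal ratios of 9.99 and 2.57. Array medians were lowest at 43C, at 517 in opi10- and 492 in opi10+, against 922 to 1096 on the other 6 arrays. Signals of 18 hybridisation controls had medians from 666 to 819, the lowest on the opi10- array at 43C and the highest on the opi10+ array at 43C. Heat marker genes responded at 43C on average over the strains. Among 6 measured genes of a list of 8, 5 rose, beside 32.8% of all tested genes, led by the HSP70 gene ssa1 at 5.07 log2 and the Hsp40 gene psi1 at 3.24. As deposited 4 of the 6 rose, beside 11.2% of all tested genes, and 4 rose when arrays were centred on the hybridisation controls. Before heat 2 of the 6 were at least 2-fold lower in opi10- than in opi10+, ssa1 at -1.09 log2 and hsp16 at -1.04, beside 0.553% of all tested genes. The strain differences of the 6, opi10- minus opi10+, lay between -0.20 and 0.05 at 43C and between -0.75 and 0.07 at 1 h. The changes from before heat given below rest on the same arrays, and the part of this difference in them was not tested.

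The transcript of ppk31 was higher at 43C than before heat in both strains, by more in opi10-, and was still above its starting level in opi10- after 1 h of recovery, when opi10+ was back near its own. In opi10- the deposited signal was 109 before heat, 1090 at 43C, 507 at 1 h and 206 at 3 h of recovery. In opi10+ it was 141 before heat, 364 at 43C, 149 at 1 h and 106 at 3 h. The opi10- array was the lower one before heat and the higher one at each later time, and all 8 signals lay far above the filter of 5.72. After quantile normalization the signals in opi10- were 114, 1596, 394 and 134 in the same order of times, and those in opi10+ were 125, 690, 122 and 70.2. Both strains were highest at 43C on both scales. The lowest array was the one at 3 h in opi10+ and the one before heat in opi10-.

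**Figure D1:**
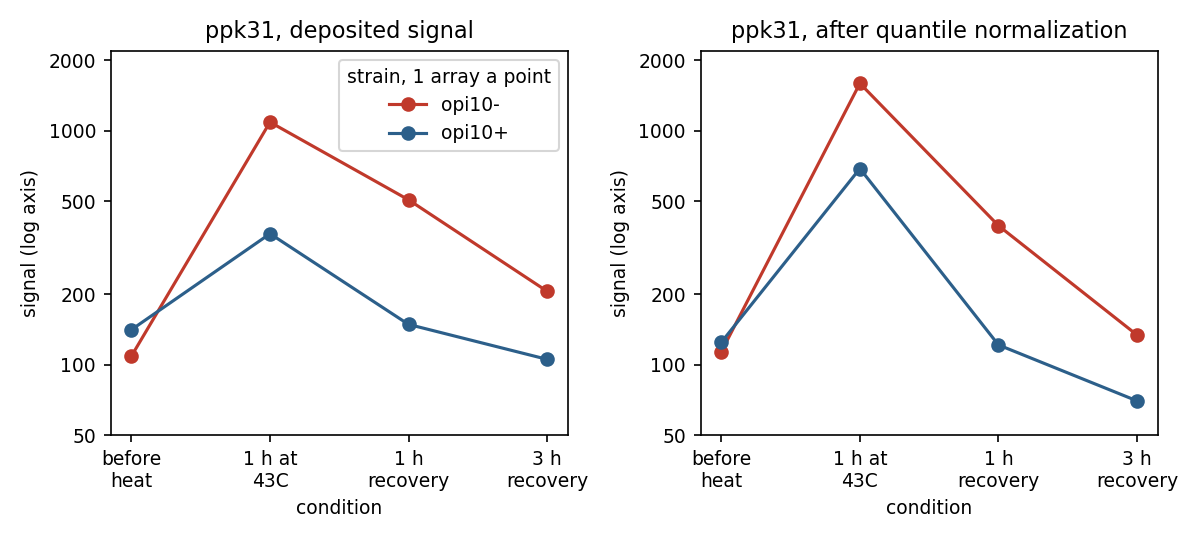
Signal of ppk31 on a log axis at the 4 times in the order of sampling, as deposited (left) and after quantile normalization (right), with opi10- in red, opi10+ in blue and 1 array for each point. Both strains peak at 43C, and the red line lies above the blue at 43C and at both recovery times, at deposited signals of 1090 against 364, 507 against 149 and 206 against 106.

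The heat rise of ppk31 was large beside the residual of an additive model. Averaged over the strains, limma gave 2.98 ± 0.36 log2 (SE) for 43C against before, with an adjusted p of 0.000363. The 2 arrays for each time are 1 of each strain and not replicates. The gene ppk31 had the 26th largest rise of the 2892 genes. The call held on the deposited scale, at 2.21 ± 0.43 (adjusted p = 0.00177), where the median of all genes was -0.92, and whichever 1 array was left out. The model held additive effects of strain and time. Its average over strains is computed apart from the difference between strains by which ppk31 was chosen, but both use the same 2 arrays at 43C. That difference also widens the residual of ppk31, on which the p rests. Without the opi10- array at 43C the average was 2.76. At an adjusted p under 0.05, 32.8% of the tested genes rose at 43C and 39.8% fell, so a call alone was common. By scale, 45.2% of the called genes were rises after quantile normalization, against 13.2% on the deposited scale.

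The single-strain changes show how unequal the rise was. From before heat to 43C ppk31 changed by 3.63 log2, or 12.4-fold, in opi10- and by 2.33, or 5.01-fold, in opi10+. Without normalization the ratio of the deposited signals was 9.99 in opi10- and 2.57 in opi10+. The change in opi10- was larger by 1.31 log2, the 3rd highest such difference of the 2892 genes, and by 1.88 without normalization, the 1st. With 1 array behind each value these differences were not tested, and they rest on the arrays by which ppk31 was chosen.

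In the first hour of recovery the level of ppk31 went down in both strains. The change from 43C to 1 h averaged -2.17 ± 0.36 log2 (limma adjusted p = 0.00201), with -1.98 in opi10- and -2.36 in opi10+. The 2 strain changes lay 0.38 log2 apart, and 286 of the 2892 genes had a wider gap. On the deposited scale the gap was 0.12, and 1634 genes had a wider one. As deposited, the change was -1.14 (limma adjusted p = 0.0369), with -1.08 in opi10- and -1.20 in opi10+, while the median of all genes rose by 0.92. Of all tested genes 30.3% fell and 35.1% rose in this step, and of the called genes 53.6% were rises, or 91.5% on the deposited scale.

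Set against the start, the level at 1 h differed by strain. In opi10- ppk31 stood 1.66 log2 above its level before heat, or 3.15-fold, while in opi10+ it stood at -0.03. The average of 0.81 ± 0.36 was not called (limma adjusted p = 0.0982), and adjusted p ran from 0.00573 to 0.617 over the 8 fits that left out 1 array. It was called only without the opi10+ array before heat, at 1.46, and among the other settings only when arrays were centred on the hybridisation controls, at 1.12 (adjusted p = 1.04e-04). The deposited scale gave a similar average, 1.07, that was not called (limma adjusted p = 0.0765). For the rise at 43C, 2.21 log2 had a limma adjusted p of 4.13e-14 on the hybridisation controls and 0.00177 as deposited. The adjusted p of that setting is thus not on a par with the others, and its call at 1 h did not rest on a much larger change. Across the tested genes 25.6% rose and 27.3% fell between these times, with 48.4% of calls being rises, against 62.5% when centred on the hybridisation controls.

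Between 1 h and 3 h the level went down again in both strains, by -1.45 log2 in opi10- and -0.68 in opi10+. The average of -1.06 ± 0.36 was just past the threshold (limma adjusted p = 0.0485), and lost the call on the deposited scale, at -0.84 (adjusted p = 0.156). It also lost it without the opi10- array at 1 h, at -0.59 (adjusted p = 0.313), and when any 1 of 5 other arrays was left out, so that it held only without either array before heat. In that step 23.4% of genes rose and 23.5% fell, and rises made up 49.9% of calls, or 66.7% on the deposited scale. At 3 h against before, ppk31 was at 0.21 in opi10- and -0.71 in opi10+. Their average of -0.25 ± 0.36 missed the threshold (limma adjusted p = 0.607) and had the other sign, 0.23, on the deposited scale. When the opi10- array before heat was left out it was -0.90 and called (adjusted p = 0.0461), and when its opi10+ partner was left out it was 0.40. Over all genes 19.7% rose and 22.2% fell by 3 h, with 46.9% of calls being rises, or 70.2% on the deposited scale. The order of the average levels was 43C, 1 h, before heat and 3 h after normalization. Of neighbours in that order, limma called 43C and 1 h apart under all settings tried. It did not call 1 h and before heat, or before heat and 3 h, apart under most settings.

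The strain difference itself, opi10- minus opi10+, was -0.12 log2 before heat, 1.19 at 43C, 1.57 at 1 h and 0.80 at 3 h of recovery. These are the values that chose the gene or come from the same comparison, and each sets 1 array against 1, so they are given as a description with no test. As ratios of deposited signals they were 0.771, 3.00, 3.41 and 1.95. From the highest downward, ppk31 ranked 2191st of 2892 genes before heat, 1st at 43C, 1st at 1 h and 18th at 3 h. With a pseudocount of 1 in place of 16 it ranked 5th at 43C and stayed 1st at 1 h. Centring arrays on the hybridisation controls, which differed between the strains at 43C, gave 1.84 at 43C, where the median of all genes moved to 0.35.

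Few genes were as far apart between the strains after quantile normalization. At 43C the share of genes at least 2-fold higher in opi10- was 0.0692%, which is ppk31 and the kinetochore gene fta6. This count of 2 genes was 15 when arrays were centred on the hybridisation controls and 14 with a pseudocount of 1, and 1, ppk31, as deposited. The share at least 2-fold lower was 0.311%, or 9 genes. Next to ppk31 stood fta6 at 1.16, with deposited signals of 61.7 in opi10- and 26.5 in opi10+, and then vrs2 at 0.99 and SPAC16E8.05C at 0.92, which did not reach 2-fold. The 9 lower genes were gnr1 at -1.40, mug93 at -1.29, mfm3 at -1.26, mug130 at -1.23, mug133 at -1.17, ima1 at -1.07, mug24 at -1.06, mug114 at -1.04 and arp1 at -1.01. Just short of them were urg2 at -0.999 and frp1 at -0.93. Apart from ppk31, only gnr1, ima1 and mug24 among these genes had a deposited signal over 100 on either array. At 1 h of recovery the shares were 0.0692% higher and 0.0692% lower, with ppk31 and the galactosidase gene mel1, at 1.23, on the higher side and mde6 and ima1 on the lower side. The gene ppk31 was the single gene at least 2-fold higher in opi10- at both times, after quantile normalization and under the 3 other scalings and 2 other pseudocounts. On the lower side ima1 was likewise 2-fold apart at both times after quantile normalization and with a pseudocount of 1, but not under the other settings. At 3 h ima1 was at -1.12. These settings reuse the same arrays, and ppk31 was chosen by its difference at 43C, so they are not independent of each other or of the choice. Before heat 0.104% of genes reached 2-fold on the higher side and 0.553% on the lower, and at 3 h the shares were 0.45% and 0.104%. Those sets did not hold ppk31.

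**Figure D2:**
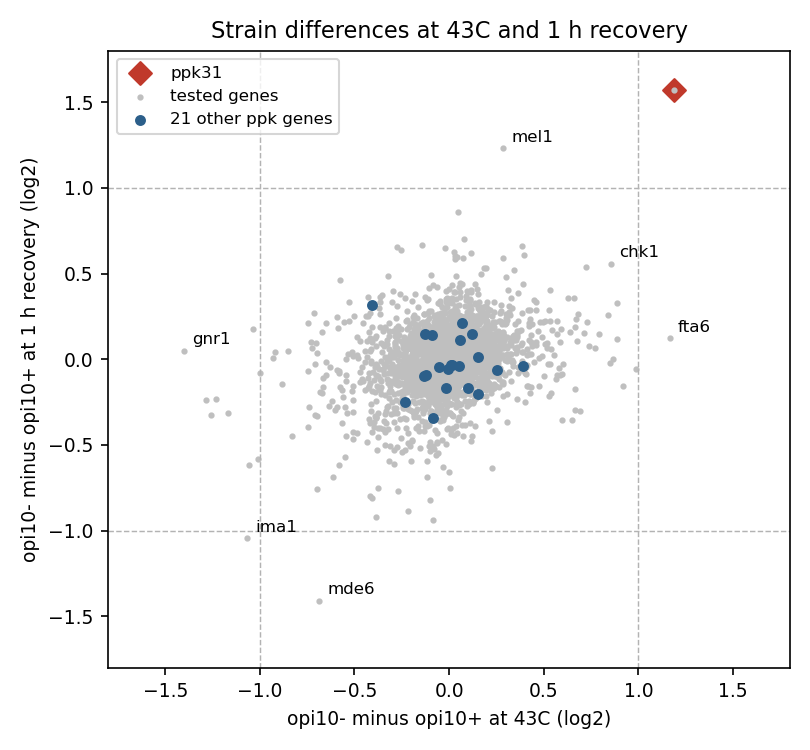
Strain difference, opi10- minus opi10+ in log2, at 43C (horizontal) and at 1 h of recovery (vertical) for ppk31 (red diamond), all tested genes (grey) and the 21 other ppk genes (blue), with dashed lines at 2-fold. The diamond, at 1.19 and 1.57, is the single point in the upper right corner beyond both lines, and the other ppk genes lie in the central cloud.

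The additive model left a wide residual for ppk31, whose strains did not run in parallel. Its residual SD was 0.51 log2 against a median of 0.10 over the tested genes, and 14 genes had a larger one. The standard errors given above, 0.36 on the normalized scale, carry this spread only in part. The moderation in limma draws the variance of each gene toward that of the other tested genes. For ppk31 they and the adjusted p are thus smaller than its own residual alone would give.

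The other ppk genes lay closer together between the strains than ppk31 at 43C and in recovery. At 43C the 21 lay between -0.41 and 0.39, with a median of 0.01 and an SD of 0.17, and ppk31 at 1.19 lay 6.92 of those SDs above their mean. At 1 h they ran from -0.34 to 0.31 with an SD of 0.16, and ppk31 at 1.57 lay 9.96 SDs above. At 3 h the range was -0.42 to 0.41 with an SD of 0.21, and ppk31 at 0.80 lay 4.00 SDs above. Before heat they ran from -0.68 to 0.34 with an SD of 0.28, the lowest being ppk24, with deposited signals of 170 in opi10- and 351 in opi10+. There ppk31 at -0.12 lay among them, below 12 and above 9. After quantile normalization no other ppk gene was 2-fold apart at any time, though ppk24 before heat reached -1.005 when centred on the hybridisation controls. Over all 2892 tested genes 19, 11, 4 and 16 were 2-fold apart before heat, at 43C, at 1 h and at 3 h. No other ppk gene lay above ppk31 at 43C, 1 h or 3 h, also when 12 further kinases with an older ppk name were added. Its place at 43C follows from how it was chosen, and its places at 1 h and 3 h come from the same comparison of the strains. The SDs describe the spread among the 21 genes, each 1 array against 1. They do not measure the error of ppk31, which had a residual SD of 0.51, so the distances in SDs are not tests. Centred on the hybridisation controls, all 21 were higher in opi10- at 43C, by 0.09 to 0.64, and ppk31 remained above them at 1.84.

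**Figure D3:**
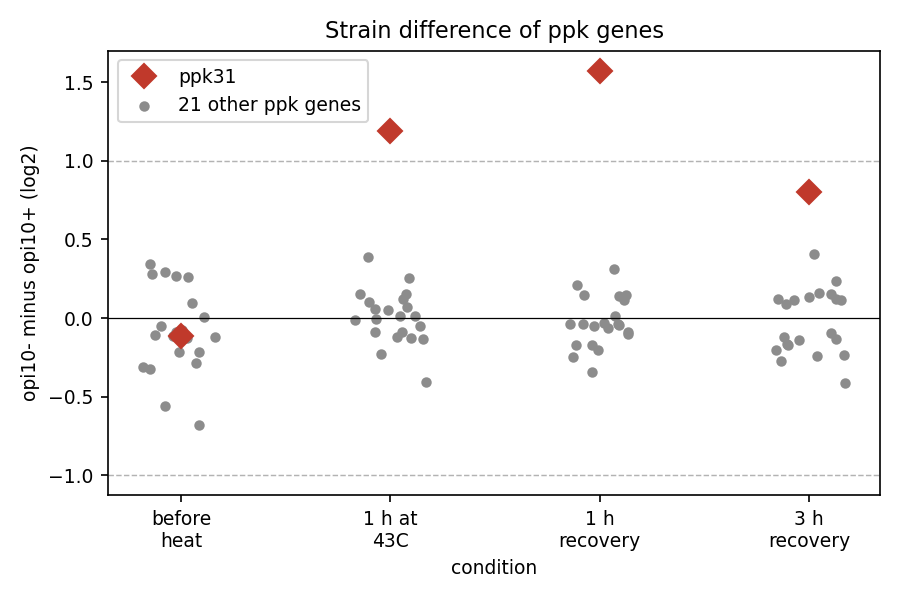
Strain difference, opi10- minus opi10+ in log2, of ppk31 (red diamonds) and the 21 other ppk genes (grey points, spread sideways to be seen) at the 4 times, with dashed lines at 2-fold. The diamond lies among the points before heat, at -0.12, and above all of them at 43C, 1 h and 3 h, at 1.19, 1.57 and 0.80.

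Within the family, the highest strain differences at 43C after ppk31 were those of ppk3 at 0.39, ppk33 at 0.25 and ppk24 at 0.15, and the lowest were those of ppk1 at -0.41, ppk25 at -0.23 and ppk29 at -0.14. The gene ppk3, related to the SCYL pseudokinases, had deposited signals of only 52.8 in opi10- and 40.7 in opi10+ at 43C. Before heat ppk1 and ppk33 were highest, at 0.34 and 0.29, and ppk24 and ppk8 lowest, at -0.68 and -0.56. At 1 h ppk1 and ppk38 were highest, at 0.31 and 0.21, and ppk32 and ppk25 lowest, at -0.34 and -0.25. At 3 h the highest were ppk1 at 0.41 and ppk33 at 0.23, and the lowest ppk24 at -0.42 and ppk38 at -0.28. The place of ppk1 at 43C depended on the scale, since as deposited ppk15 was the lowest of the 21 there, at -0.20.

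The heat response of ppk31 was also larger than that of its family. Of the 21 others, 6 rose and 8 fell at 43C by limma, with a median of -0.08 log2 beside -0.07 for all tested genes. These counts lie near the 32.8% and 39.8% of all tested genes. Their changes ran from -1.87 to 1.86, all below the 2.98 of ppk31, and in opi10+ alone the highest was 1.57 against 2.33 for ppk31. The largest rises were those of ppk8 at 1.86 (adjusted p = 1.09e-04), ppk15, a kinase of the DYRK family, at 1.49 and ppk25, a relative of the polarity kinase Kin1, at 0.78. As deposited, ppk8 and ppk15 still rose, by 1.14 and 0.87, and ppk25 was at -0.28 and not called (adjusted p = 0.0505). The largest falls were those of ppk3 at -1.87, ppk1 at -1.45 and ppk33 at -1.20, which fell on the deposited scale too. There 2 of the 21 rose and 16 fell, beside 11.2% and 73.7% of all tested genes. The gene ppk8 had deposited signals of 417 before heat and 1175 at 43C in opi10-, and of 669 and 1201 at the same times in opi10+. Its arrays at 43C thus lay close together, where those of ppk31 lay apart.

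In recovery the family moved both ways. From 43C to 1 h, 10 of the 21 rose and 7 fell, or 18 and 1 on the deposited scale, where 78.6% of all tested genes rose and 7.3% fell. At 1 h against before 5 rose and 3 fell, at 3 h against before 5 rose and 4 fell, and from 1 h to 3 h 2 rose and 5 fell. In the same order of steps 35.1%, 25.6%, 19.7% and 23.4% of all tested genes rose, and 30.3%, 27.3%, 22.2% and 23.5% fell. The difference between the strains' changes from before to 1 h ran from -0.52 for ppk25 to 0.52 for ppk8 in the family, and was 1.69 for ppk31.

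The genes of the Greatwall branch were set beside ppk31, which was chosen by its strain difference at 43C, so its place there was fixed in advance. It was the one gene of the list 2-fold apart between the strains at 43C and at 1 h. Over all 2892 tested genes 11 were 2-fold apart at 43C and 4 at 1 h, so few would be found in a list of this size. The list held ppk31, ppk18, cek1, the endosulfine gene igo1, and genes of PP2A and its regulators. The PP2A genes are those of the catalytic subunits, ppa1 and ppa2, the scaffold, paa1, and the B55 and B56 subunits, pab1 and par1. At 43C the other 8 lay between -0.27 and 0.19, at 1 h between -0.51 and 0.22, and at 3 h between -0.21 and 0.28, and none was 2-fold apart at any time. The kinase gene cek1 was lower in opi10- where ppk31 was higher. Its deposited signals in opi10- were 501, 484, 645 and 481 before heat, at 43C, at 1 h and at 3 h, and in opi10+ they were 531, 598, 872 and 574. On the normalized scale its strain differences were 0.04, -0.27, -0.51 and -0.21 at those times. The signals of ppk18 in opi10- were 1854, 1469, 1978 and 2758, and those in opi10+ were 2308, 1653, 1738 and 2518, with strain differences of -0.22, -0.13, 0.15 and 0.16. The order of the strains thus changed for ppk18 between 43C and 1 h, but both differences lay within the SD over all tested genes, 0.22 at 43C and 0.19 at 1 h. The difference of cek1 at 3 h also lay within that SD, 0.25 there, while those at 43C and 1 h lay outside it. For igo1 the strain differences were -0.24, 0.16, 0.22 and 0.07.

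Under heat, 4 of these 8 genes rose and 1 fell, with a median of 0.30 log2 beside -0.07 for all genes, of which 32.8% rose and 39.8% fell. By limma igo1 rose by 1.03 ± 0.12 (adjusted p = 3.61e-04), cek1 by 0.995 ± 0.13 (adjusted p = 5.99e-04), pab1 by 0.37 and ppa2 by 0.37, while paa1 fell by 0.91 ± 0.09. Leaving out the opi10- array before heat ended the call of ppa2, with a limma adjusted p of 0.0919. The genes ppk18, ppa1 and par1 were at 0.23, 0.06 and 0.02 and were not called. These directions depended on the scale, since as deposited 1 of the 8 rose and 6 fell, beside 11.2% and 73.7% of all tested genes. There igo1 rose by 0.44, cek1 was at 0.06, and pab1 and ppa2 had turned to -0.34 and -0.46. The median of the 8 stood above that of all genes on both scales, by 0.36 and 0.48. At 1 h against 43C, 7 of the 8 fell and paa1 rose, beside 30.3% and 35.1% of all genes. This too turned with the scale, since as deposited 5 of the 8 rose and none fell, beside 78.6% and 7.3% of all tested genes.

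**Figure D4:**
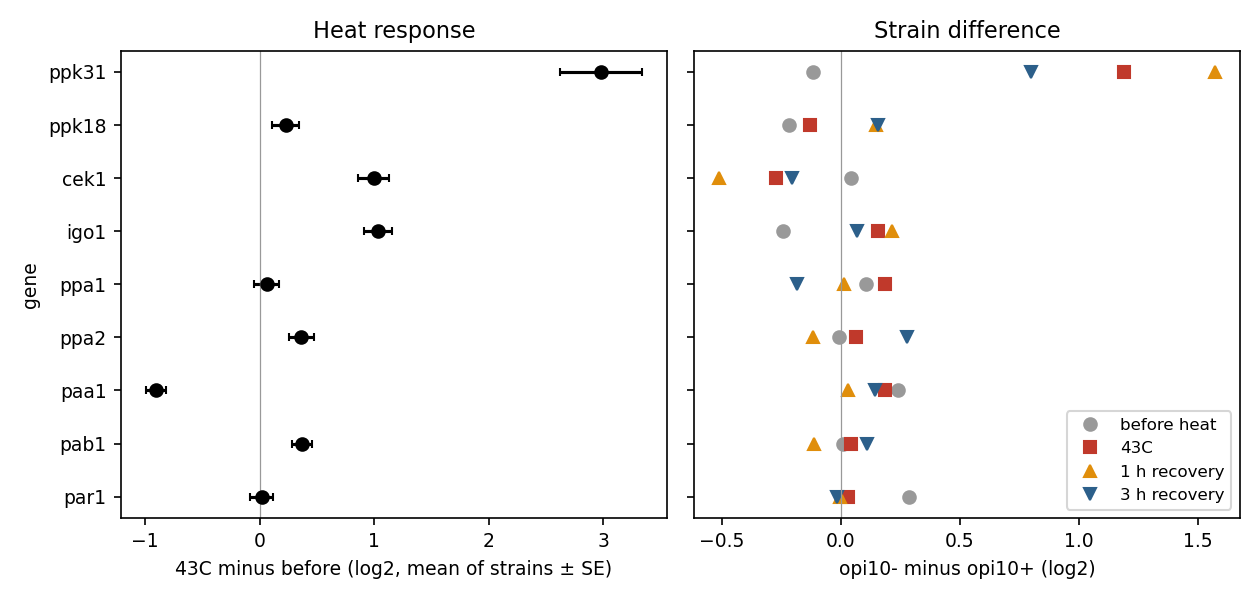
The 9 genes of the Greatwall and PP2A list, with the change from before heat to 43C averaged over the strains (left, log2 with SE from limma) and the difference opi10- minus opi10+ at each of the 4 times (right, log2, 1 array against 1). The change of ppk31 is 2.98 and its strain differences at 43C, 1 h and 3 h, from 0.80 to 1.57, lie right of those of the other 8 genes, which stay between -0.51 and 0.29.

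Among genes of other kinase pathways, none of those listed here was 2-fold apart between the strains at 43C, beside 11 of all 2892 tested genes. Of 11 measured PKA pathway genes of 12 listed, 8 rose and 2 fell at 43C with a median of 1.44 log2, where 32.8% of all tested genes rose and 39.8% fell. They included git3, the glucose receptor gene, at 2.93, the regulatory subunit gene cgs1 at 2.62 and git5, a G protein beta subunit gene, at 1.79. Their strain differences at 43C ran from -0.40 for git3 through -0.32 for cgs2 to 0.13. Of 14 measured genes of 17 listed for the stress kinase Sty1, 9 rose and 1 fell, against the same shares of 32.8% and 39.8%, with a median of 1.25, led by the phosphatase gene pyp2 at 4.64, the kinase gene srk1 at 2.07 and the phosphorelay gene mpr1 at 2.06. Their strain differences at 43C lay between -0.32, for pyp2, and 0.14. As deposited, 6 rose and 3 fell in the PKA list, and 7 rose and 5 fell in the Sty1 list, where 11.2% of all tested genes rose and 73.7% fell. The medians of these lists stayed positive there, at 0.60 and 0.48.

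Of 18 measured genes of 20 listed for TORC1 and nutrient kinases, 6 rose and 8 fell, with a median of -0.10, which is near the 32.8% and 39.8% of all tested genes and their median of -0.07. Examples were ssp1, which encodes a kinase upstream of AMPK, at 1.94, cbs2, an AMPK subunit gene, at -1.09, and wat1, a subunit gene shared by the TOR complexes, at 0.97. Their strain differences at 43C stayed between -0.15 for gtr1 and 0.24 for tsc1. All 6 TORC2 genes were measured and 5 rose, with a median of 0.53, beside 32.8% of all tested genes, including bit61 at 1.24 and the kinase gene gad8 at 0.91. All 6 genes of the cell integrity kinase pathway were measured and 5 rose, with a median of 0.52, again beside 32.8% of all tested genes, led by the protein kinase C gene pck1 at 2.30. As deposited, 2 rose and 14 fell for TORC1, 1 rose and 3 fell for TORC2, and 1 rose and 3 fell for cell integrity, beside 11.2% and 73.7% of all tested genes. The medians of the last 2 lists turned negative there, at -0.22 and -0.31, while staying above the median of all genes.

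A wider list held 55 protein kinase names, of which lkh1 and kic1 are names of the same gene. Its 53 measured genes had 24 rises and 13 falls at 43C with a median of 0.14, beside 32.8% and 39.8% of all tested genes. On the deposited scale 8 rose and 35 fell, beside 11.2% and 73.7%. The heme-regulated eIF2 alpha kinase gene hri1 rose by 2.64, the PAK gene shk2 by 2.23 and lkh1, a LAMMER kinase gene, by 1.57, less than the 2.98 of ppk31 on the average of the strains. In opi10+ alone this order did not hold, with hri1 at 2.51 and shk2 at 2.49 above ppk31 at 2.33, whereas in opi10- hri1 was at 2.76, shk2 at 1.96 and ppk31 at 3.63. The widest strain differences at 43C were those of the checkpoint kinase gene chk1 at 0.85, shk2 at -0.67 and the septation kinase gene sid1 at 0.64. The deposited signals of chk1 at 43C were 44.7 in opi10- and 23.0 in opi10+. At 1 h of recovery chk1 was at 0.56. None of the 53 was 2-fold apart at 43C, 1 h or 3 h, beside 11, 4 and 16 of all 2892 tested genes. Before heat 1, oca2, was 2-fold lower in opi10-, at -1.003, beside 0.553% of all tested genes.

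The genes with profiles most like that of ppk31 peaked at 43C, and most showed little difference between the strains. By the distance between log2 profiles over the 8 arrays, each centred on its mean, the closest genes were isp3, a spore wall gene, at a root mean square distance of 0.51, then mug37 at 0.59, prp2, which encodes the large subunit of the splicing factor U2AF, at 0.61, mni1 at 0.63 and meu7 at 0.65. All 5 rose at 43C by limma, by 1.89 to 3.25 log2. Of these isp3 had the widest strain difference at 43C, at 0.60, with deposited signals of 1077 in opi10- and 639 in opi10+. At 1 h isp3 was at -0.03, with 380 in opi10- and 373 in opi10+. The other 4 had strain differences between -0.18 and 0.14 at all 4 times. These distances describe 8 arrays that share strain and time.

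**Figure D5:**
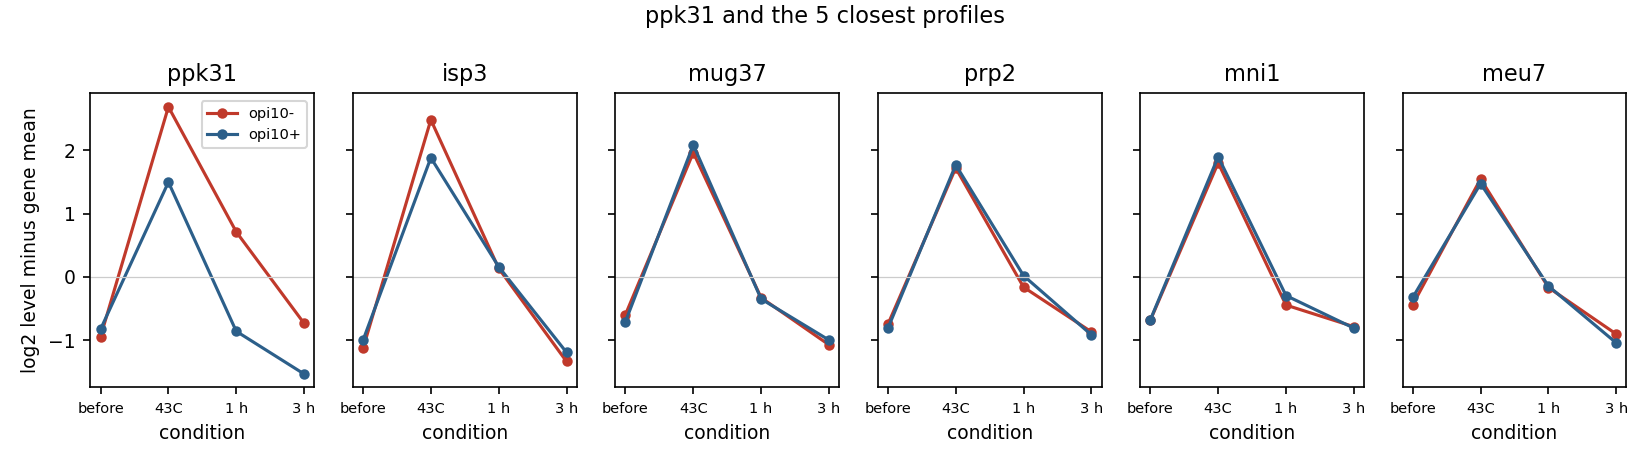
Level of ppk31 and of the 5 genes with the closest profiles, in log2 after quantile normalization and minus each gene's mean over the 8 arrays, at the 4 times, with opi10- in red and opi10+ in blue. All 6 genes peak at 43C, and the red and blue lines of ppk31 part at 43C and in recovery, whereas those of mug37, prp2, mni1 and meu7 nearly coincide.

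By Pearson r over the same 8 arrays the highest genes were uch2, a gene of a proteasome-associated deubiquitinase, at 0.971, nep1, a NEDD8 protease gene, at 0.967, apl1 at 0.953, the condensin gene cnd2 at 0.944 and the U2 snRNP gene msl1 at 0.943. Their changes were far smaller than that of ppk31, at 0.22 to 0.71 log2 for 43C against before after quantile normalization. As deposited, uch2, apl1 and cnd2 went down at 43C in both strains, with uch2 at 2677 before heat and 1984 at 43C in opi10-. There nep1 went up in opi10- and down in opi10+, and msl1 went up in both. The signals of msl1 were only 13.4 to 30.3 over the 8 arrays. On the deposited scale uch2, apl1 and cnd2 had r of -0.723, -0.587 and -0.59, and none of the 5 stayed among the top 5 there, where isp3 was first at 0.857. These correlations are given as a description.

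The measured genes near ppk31 on the chromosome were not 2-fold apart between the strains. In the order of protein-coding genes of the ASM294v3 assembly, pex5, which encodes the import receptor of peroxisomes, is next to ppk31 on one side, and of the 3 nearest genes on each side only pex5 and hob3 had a named probe set here. The strain differences of pex5 were 0.09, 0.35, 0.04 and -0.19 before heat, at 43C, at 1 h and at 3 h, and those of hob3 were -0.04, -0.04, 0.23 and 0.02. By limma pex5 rose by 0.75 at 43C (adjusted p = 0.00202) and hob3, at -0.14, was not called. In the same gene table a long noncoding RNA gene, SPNCRNA.1421, spans the whole of ppk31. The table gives no strand, and the sources used here do not place the probe set within ppk31, so the part of that RNA in the signal was not tested.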

How the data were processed

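RNA from 2 strains at 4 times was labelled with a 3' IVT kit and hybridised to 8 Affymetrix yeast arrays, per the labels' protocols. The authors deposited intensity values for 10928 probe sets on a linear scale. The sources used here do not give how probes were summarised or arrays scaled. No saturation calls were used, and the number of arrays limits the precision.

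The platform annotation, updated through Entrez identifiers to the ASM294v3 gene table, gave 2914 probe sets with 1 S. pombe gene (2896 genes) and 2601 with 1 S. cerevisiae gene. A gene was tested when its mean signal passed the 75th percentile over the budding yeast probe sets, 5.72, which 2892 genes did, each by its brightest probe set. Changes between times were tested with limma 3.58.1 in R 4.3.3 (lmFit, eBayes) on quantile normalized log2(value + 16), with strain and time as terms, 3 residual degrees of freedom and Benjamini-Hochberg adjustment over all tested genes at 0.05. The fit was tested on simulated data. P-values measure only the spread between these arrays. Strain differences at 1 time have no test. The gene order and the overlap with SPNCRNA.1421 were taken from the ASM294v3 gene table. Coordinates are not printed, and no sequence was used here.

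The members and lists were chosen with earlier results of these data known. The rule for named genes took ppk31, the extremes of the ppk family, genes 2-fold apart at 43C with the next 2, the closest profiles, the chromosome neighbours and up to 3 genes a list for each measure. Genes named outside it are mel1, mde6 and ima1 at 1 h, oca2 and the signals of ppk8, which were chosen after their values were seen. Alternatives were other scalings, pseudocounts of 1 and 64, no filter or one at the 95th percentile, an intensity trend with robust moderation, and leaving out each array.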

Additional observations from a re-analysis of the deposited data

Results flagged for a closer look

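The change of ppk31 from before heat to 1 h of recovery was 1.66 log2 in opi10- and -0.03, close to 0, in opi10+, a gap of 1.69. It was picked out because the signs differ, which they do not on the deposited scale, at 2.07 in opi10- and 0.07 in opi10+. The change from before heat to 3 h went opposite ways, at 0.21 in opi10- and -0.71 in opi10+, a gap of 0.92, and did so on the deposited scale at 0.83 in opi10- and -0.37 in opi10+. Each value compares 1 array with 1 array, both changes share the arrays before heat, and the difference between the strains was not tested.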

How the results depend on the processing

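The rise of ppk31 at 43C and its fall from 43C to 1 h kept their direction and call under all 8 settings and all 8 fits without 1 array, at 2.21 to 3.14 and -2.27 to -1.10 log2 over the settings and at 2.33 to 3.63 and -2.64 to -1.69 over those fits. The change at 1 h against before became a call when centred on the hybridisation controls, at 1.12, though the similar 1.07 as deposited was not called. It ranged from 0.16 to 1.46 without 1 array. At 3 h against before it was 0.23 on the deposited scale, 0.080 when centred on medians and 0.32 on the hybridisation controls, against -0.25, and -0.90 to 0.40 without 1 array. From 1 h to 3 h the call was lost on the deposited scale (-0.84), when centred on medians (-0.92), with pseudocounts of 1 (-1.17) and 64 (-0.84) and with an intensity trend and robust moderation (-1.06, adjusted p = 0.0539), and the change was -1.54 to -0.59 without 1 array. The cause was not tested. The fit already compares the times within each strain through its strain term, so no further paired analysis was made.

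The strain difference at 43C was 1.54 as deposited, 1.48 when centred on medians and 1.84 on the hybridisation controls, against 1.19. At 1 h it was 1.76 on the hybridisation controls and 1.29 with a pseudocount of 64, against 1.57, and at 3 h 0.57 with that pseudocount, against 0.80. The rank at 3 h was then 28th in place of 18th, and at 43C it was 5th in place of 1st with a pseudocount of 1. The r of uch2, apl1 and cnd2 turned to -0.723, -0.587 and -0.59 as deposited.

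Genes at least 2-fold higher in opi10- at 43C numbered 15 on the hybridisation controls and 14 with a pseudocount of 1, against 2. Counts of called genes moved by over 1.5 times on the deposited scale and, in brackets, on the hybridisation controls. At 43C the rises were 323 (284) against 950 and the falls 2132 (2019) against 1152. From 43C to 1 h they were 2272 (2167) against 1015 and 211 (166) against 877. At 3 h against before the falls were 330 (118) against 643, from 1 h to 3 h 395 (251) against 681, and at 1 h against before, on the controls alone, 369 against 789. Rises and falls also moved without 1 array. At 1 h they were 396 and 448 without opi10- at 1 h and 417 and 485 without opi10+ at 1 h, against 741 and 789. At 3 h they were 291 and 292 without opi10- before heat, 275 and 318 without opi10- at 3 h and 379 and 426 without opi10+ at 3 h, against 569 and 643. From 1 h to 3 h they were 367 and 360 without opi10- at 1 h, 332 and 348 without opi10- at 3 h and 290 and 307 without opi10+ at 1 h, against 677 and 681.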
